A study of Mus musculus with 4 samples.

Results

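Megakaryocyte and platelet genes were compared between mouse hematopoietic stem cells (HSC) and the multipotent progenitors (MPP) that follow them in blood formation. The list held 41 genes, taken by name, and every probe set that the array's platform annotation assigned to 1 of these genes alone was used. By that rule 37 genes had 68 probe sets, out of 18193 genes named in this way on the array. Gp1ba, Serpine2, Bin2 and Ptgs1 had no probe set of their name in the annotation used here. HSC were KSL cells without surface CD34, MPP were KSL cells with CD34, and both came by cell sorting from mice of C57BL/6 background. Both groups share the KSL sort, which takes cells positive for c-Kit and Sca-1 and without markers of mature lineages, and the labels name neither an age nor a treatment. Each group held 2 biological replicates, each read on 1 Affymetrix mouse expression array after the RNA equivalent of 3000 cells had been amplified in 2 cycles. The labels do not say whether the replicates came from separate animals. Every p-value thus concerns the spread between these samples, and it rests largely on a spread shared across probe sets.

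Megakaryocytes are the bone marrow cells that shed platelets. Platelets stick to an injured vessel through surface glycoproteins, release stored proteins from granules, change shape through their cytoskeleton and answer thrombin, nucleotides, thromboxane and nitric oxide. Some of these genes, von Willebrand factor above all, are known to be active already in a fraction of mouse HSC. In RNA from many cells, a smaller number of expressing cells and less RNA per cell cannot be told apart.

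The promoter letters of 5 members are shown, chosen by these rules. Pdgfc, Cavin2 and Mmrn1 had the largest increases among members with a single promoter window, and Gp5 and Pf4 were the tested members whose windows held both motifs searched. Sequences are from RefSeq, build GRCm38.p6, and each is the 250 bases before the annotated start, written 5′ to 3′ on the gene's strand. Capitals mark AGATAA, a motif of GATA factors, and GGAAGT, a motif of ETS factors, on either strand.
Pdgfc (chr3:81036166-81036415, plus strand): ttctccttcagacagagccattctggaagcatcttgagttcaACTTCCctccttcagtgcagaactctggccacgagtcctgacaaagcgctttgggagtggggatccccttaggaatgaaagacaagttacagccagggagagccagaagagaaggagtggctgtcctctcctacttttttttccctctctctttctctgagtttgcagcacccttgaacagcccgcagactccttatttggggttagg
Cavin2 (chr1:51288876-51289125, plus strand): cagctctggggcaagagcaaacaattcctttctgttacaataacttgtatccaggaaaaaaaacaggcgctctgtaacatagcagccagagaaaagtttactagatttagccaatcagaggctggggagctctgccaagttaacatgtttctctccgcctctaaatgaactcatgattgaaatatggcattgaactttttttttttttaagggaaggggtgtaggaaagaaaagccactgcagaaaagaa
Mmrn1 (chr6:60944067-60944316, plus strand): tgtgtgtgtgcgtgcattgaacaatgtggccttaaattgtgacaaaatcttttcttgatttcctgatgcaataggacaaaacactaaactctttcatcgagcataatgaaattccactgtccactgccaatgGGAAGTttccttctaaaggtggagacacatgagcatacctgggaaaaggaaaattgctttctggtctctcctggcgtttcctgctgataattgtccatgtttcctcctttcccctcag
Gp5 (chr16:30310782-30311031, minus strand): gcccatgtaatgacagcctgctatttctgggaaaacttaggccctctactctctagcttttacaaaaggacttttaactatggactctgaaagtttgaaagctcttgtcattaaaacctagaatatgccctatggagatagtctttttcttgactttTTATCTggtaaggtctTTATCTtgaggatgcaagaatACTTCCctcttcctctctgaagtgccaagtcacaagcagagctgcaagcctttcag
Pf4 (chr5:90772185-90772434, plus strand): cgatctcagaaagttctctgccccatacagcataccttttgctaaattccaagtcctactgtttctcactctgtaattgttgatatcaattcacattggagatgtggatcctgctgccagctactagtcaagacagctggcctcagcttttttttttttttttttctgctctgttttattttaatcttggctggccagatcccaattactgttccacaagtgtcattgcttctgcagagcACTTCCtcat

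Windows of 300 bases (250 before to 50 after the start) were found for 34 of the 41 members. AGATAA was in the windows of 8 of them (23.5%), against 12.7% of 27025 genes with a window, and GGAAGT in 13 (38.2%), against 26.5%. Matches of the 2 motifs did not overlap in the letters shown. In Gp5 a pair of GATA motifs began 93 and 77 bases before the start and an ETS motif 56 bases before it. In Pf4 an ETS motif began 10 bases before the start, and the GATA motif lay past the start, outside the letters shown. Pdgfc and Mmrn1 had an ETS motif each, 208 and 118 bases before the start, and Cavin2 had neither motif in the letters shown. Among the members called higher in HSC, 10 had a window, with AGATAA in 2 and GGAAGT in 5. These matches describe letters in a window and show no binding.

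Signals were read in arbitrary intensity units against a floor, set on each array by the brightest of 27 control probe sets that target Bacillus subtilis RNA. The floor was 16.9 and 16.7 units on the HSC arrays and 14.9 and 13.6 units on the MPP arrays. Of the 37 members with a probe set, 26 lay above the floor on all 4 arrays by their brightest probe set. Clec1b, Vwf and Pdgfc were above it on both HSC arrays and on neither MPP array, Mrvi1 on both MPP arrays and on neither HSC array. Gp6, F10, Myl9 and P2ry1 were at or under the floor on all 4 arrays. Marker genes were read beside the labels. Of 10 stem cell markers, 9 rose in HSC, among them Ndn, Mllt3, Mecom and Slamf1, against 7.71% of all genes tested. Cd34, the sorted antigen, fell with Flt3 and Cd48, the other progenitor markers, against 5.9% of all genes tested. The marker lists were chosen with earlier results of these data known, so they are no independent check of the labels. HSC replicate 2 stood apart in its control signals, with a 3′ to 5′ actin ratio of 9.42 against 5.26 on HSC replicate 1 and 4.99 and 5.01 on the MPP arrays. Its part in the results was not tested, and values without that array are given where they change a call.

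**Figure D1:**
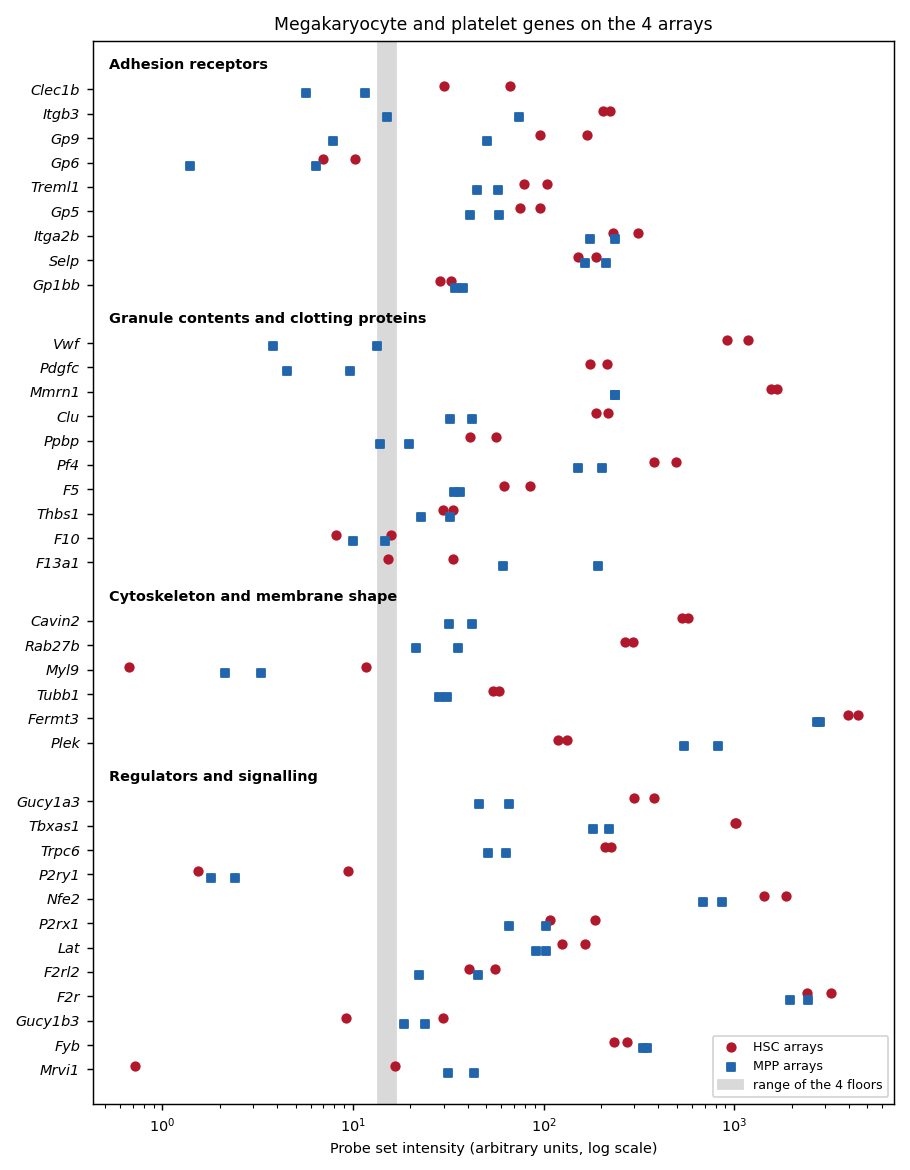
Intensity of the brightest probe set of each of 37 members (log axis, arbitrary units) on the 2 HSC arrays (circles) and the 2 MPP arrays (squares), by role, with the range of the 4 floors in grey. The HSC circles of Vwf, at 920 and 1183 units, lie far right of the MPP squares at 3.82 and 13.4 units, while those of Plek lie left of the squares.

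A filter on mean level left 33 members, each represented by its brightest tested probe set, and differences are HSC minus MPP of log2(intensity + 6.01). At an adjusted p under 0.05 in limma's moderated test, with Benjamini-Hochberg adjustment over all 27022 probe sets tested, 15 members rose in HSC, 2 fell and 16 had no call. The same test called 7.71% of 12382 genes higher and 5.9% lower. The members' log2 differences ran from -2.36 to 6.25 with a median of 0.81, against a median of 0.10 over all genes tested. For 22 members both HSC arrays lay above both MPP arrays, an order met by 35.3% of all genes, and for 5 both lay below, an order met by 23.4% of all genes. A member with signal in 1 group alone, such as Vwf, could pass the filter through that group, so these counts describe the list and test nothing about it. With equal array medians 13 members rose and 3 fell. Over all probe sets, 1611 were higher and 1257 lower on the deposited scale, and 1020 higher and 2379 lower with equal array medians, where the median of all probe sets was -0.13 in place of 0.11. Fewer members were called without MPP replicate 2, a fit with 1 MPP array, and no share over all genes is set beside that loss.

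**Figure D2:**
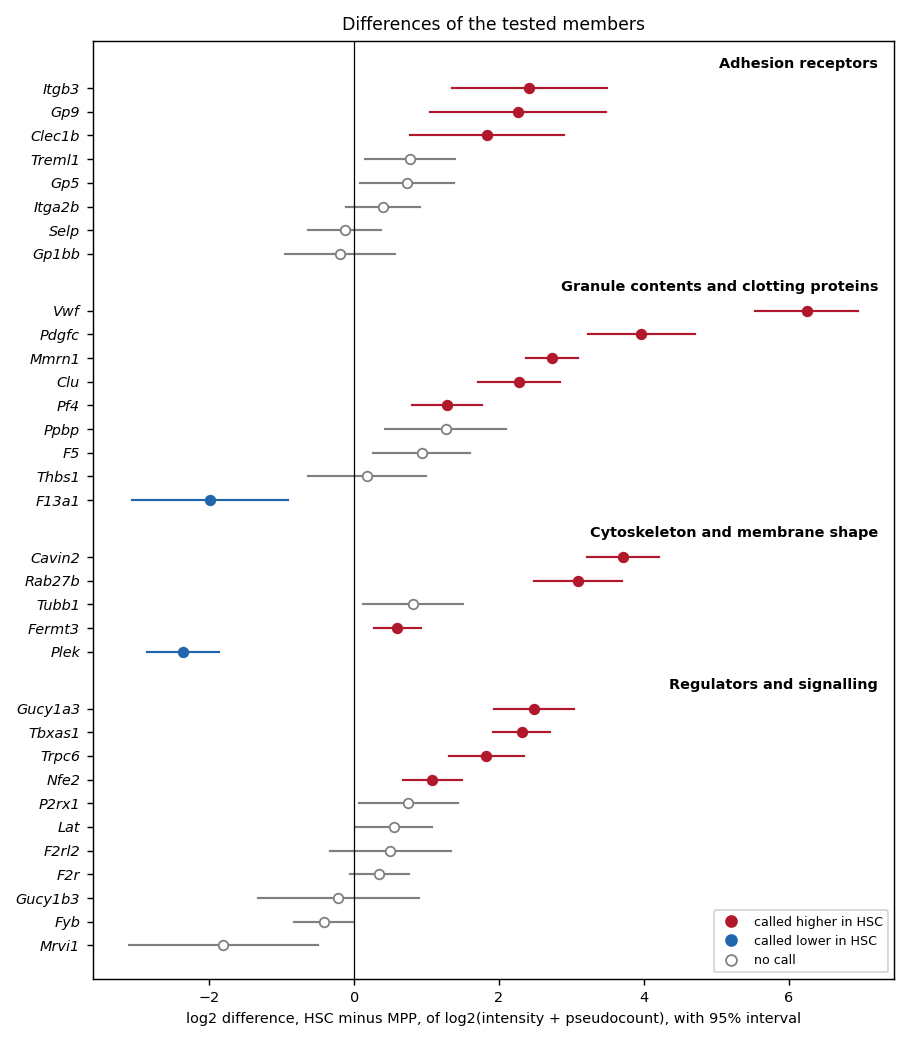
Log2 difference, HSC minus MPP, of the 33 tested members by role, as points with 95% intervals from limma. Filled points to the right are the 15 members called higher in HSC and filled points to the left the 2 called lower, Plek and F13a1, and open points have no call.

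Among the adhesion receptors, 3 of 8 tested members rose in HSC, none fell and 5 had no call. Over all genes, 7.71% were called higher and 5.9% lower. Itgb3 is the beta chain of the fibrinogen receptor. It read 205 and 223 units in HSC, against 74.1 and 15.2 units in MPP. Both HSC arrays were above both MPP arrays, and the MPP arrays lay far apart. The log2 difference was 2.42 (SE 0.48, limma adjusted p = 0.00994), or 1.46 without MPP replicate 2 and 3.37 without MPP replicate 1. The call was lost without the filter on mean level (adjusted p = 0.0552) and without the trend in eBayes (adjusted p = 0.105). A dimmer Itgb3 probe set, below the filter, read 1.73 and 25.1 units in HSC, against 4.24 and 2.25 units in MPP, and its groups overlapped. Itga2b, the alpha chain that pairs with Itgb3, read 313 and 231 units in HSC, against 237 and 174 units in MPP. Its groups overlapped, and the difference of 0.39 had a 95% interval of -0.12 to 0.91 and no call (adjusted p = 0.336).

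The glycoprotein Ib complex binds von Willebrand factor on the vessel wall. Its subunit gene Gp9 read 169 and 96.2 units in HSC, against 50.2 and 7.82 units in MPP, with MPP replicate 2 under the floor. The log2 difference of 2.26 (SE 0.55, limma adjusted p = 0.0254) was 1.87 without HSC replicate 1 and 1.25 without MPP replicate 2, with no call in either case (adjusted p = 0.0567 and 0.0644). Gp5, which joins the same complex, read 96.3 and 75.6 units in HSC, against 58.7 and 41.2 units in MPP. Its HSC arrays lay above its MPP arrays, but the difference of 0.73 (95% interval 0.08 to 1.37) had no call (adjusted p = 0.154). Gp1bb, the beta subunit, read 32.6 and 28.8 units in HSC, against 34.3 and 37.8 units in MPP, a difference of -0.20 without a call. Its second probe set was at 0.80, also without a call (adjusted p = 0.265), so the 2 probe sets of Gp1bb disagreed in sign.

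Clec1b is the receptor through which platelets bind podoplanin. It read 30.0 and 66.9 units in HSC, against 11.6 and 5.69 units in MPP, both of these under the floor. By mean level, HSC were at least 3.15-fold higher. The log2 difference was 1.84 (95% interval 0.78 to 2.90, SE 0.48, limma adjusted p = 0.0342). The call was lost without HSC replicate 2 (1.33, adjusted p = 0.207), without MPP replicate 2 (1.54, adjusted p = 0.122) and with equal array medians (1.6, adjusted p = 0.0512). Treml1, a receptor of platelet granule membranes, read 79.1 and 104 units in HSC, against 45.0 and 57.4 units in MPP. Those groups did not overlap, and the difference of 0.77 (95% interval 0.14 to 1.39) had no call (adjusted p = 0.119). Selp, P-selectin, which granules carry to the surface, read 153 and 189 units in HSC, against 212 and 164 units in MPP. The groups overlapped on all 3 of its probe sets, whose differences were -0.13, -0.04 and 0.37. Gp6, the collagen receptor, stayed under the floor on every array, with 6.97 and 10.2 units in HSC and 1.40 and 6.42 units in MPP.

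Among granule contents and clotting proteins, 5 of 9 tested members rose, 1 fell and 3 had no call, against 7.71% higher and 5.9% lower over all genes. Vwf, the adhesive protein that bridges platelets and collagen, read 920 and 1183 units in HSC, against 3.82 and 13.4 units in MPP. Both MPP values were under the floor, and by mean level HSC were at least 73.2-fold higher (limma adjusted p = 2.59e-06). Mmrn1, a large granule protein that binds factor V, read 1552 and 1677 units in HSC, against 238 and 237 units in MPP. The replicates of each group lay close together, and the log2 difference was 2.73 (SE 0.16, adjusted p = 7.71e-06). A dimmer Mmrn1 probe set, below the filter, read 25.9 and 20.6 units in HSC, against 3.15 and 1.66 units in MPP.

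Pdgfc, a growth factor of the platelet-derived growth factor family, read 175 and 214 units in HSC, against 4.49 and 9.62 units in MPP. With both MPP arrays under the floor, HSC were at least 13.6-fold higher by mean level (limma adjusted p = 6.40e-05). A second Pdgfc probe set read 119 and 94.9 units in HSC, against 19.1 and 11.4 units in MPP, a smaller difference of 2.43 that was also called (adjusted p = 0.00123). Clu, clusterin, a chaperone stored in platelet granules, read 188 and 219 units in HSC, against 32.4 and 42.1 units in MPP. All 4 Clu probe sets were called higher, with log2 differences between 2.14 and 2.72. The largest came from a probe set under the floor on both MPP arrays, where HSC were at least 4.93-fold higher by mean level. Pf4, platelet factor 4, a chemokine of alpha granules, read 497 and 382 units in HSC, against 203 and 151 units in MPP. That put HSC 1.28 higher in log2 (SE 0.22, adjusted p = 0.00419), a call lost without the trend in eBayes (adjusted p = 0.0714). Ppbp, a chemokine gene that RefSeq places beside Pf4, read 41.2 and 56.3 units in HSC, against 19.7 and 13.8 units in MPP. Its difference of 1.26 was of like size, but its wider error (SE 0.38) left it without a call (adjusted p = 0.0584).

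F5, coagulation factor V, read 62.1 and 85.0 units in HSC, against 33.9 and 36.7 units in MPP, a difference of 0.93 without a call (limma adjusted p = 0.0805). Its second probe set read 41.2 and 76.3 units in HSC, against 21.1 and 14 units in MPP, and was called higher (1.42, adjusted p = 0.0454). Without HSC replicate 1 the brighter F5 probe set was called as well (1.14, adjusted p = 0.0436), and without HSC replicate 2 it was at 0.72 (adjusted p = 0.25). Thbs1, thrombospondin, read 29.6 and 33.7 units in HSC, against 32.3 and 22.7 units in MPP. The groups overlapped, and the difference of 0.18 was -0.05 with equal array medians or quantile normalization. F13a1, the clot-stabilising factor XIII chain that monocytes make as well, went the other way. It read 15.3 and 33.5 units in HSC, against 61.2 and 193 units in MPP, and was under the floor on HSC replicate 1. Its log2 difference of -1.99 (SE 0.49, adjusted p = 0.0256) was -1.21 without MPP replicate 2, with no call (adjusted p = 0.230). F10, coagulation factor X, read 15.8 and 8.20 units in HSC and 14.8 and 10 units in MPP on its brightest probe set.

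Among genes of the cytoskeleton and of membrane shape, 3 of 5 tested members rose, 1 fell and 1 had no call. The shares over all genes were 7.71% higher and 5.9% lower. Cavin2, a coat protein of membrane pits called caveolae, read 536 and 571 units in HSC, against 42.1 and 32.0 units in MPP. All 3 of its probe sets were called higher, and limma put the brightest at a log2 difference of 3.71 (SE 0.22, adjusted p = 7.71e-06). A dimmer Cavin2 probe set, at 0.278 and 7.22 units in MPP, was under the floor on both MPP arrays. Rab27b, a small GTPase of granule transport, read 269 and 294 units in HSC, against 35.7 and 21.3 units in MPP, a difference of 3.09 (SE 0.27, adjusted p = 8.68e-05). Of its 4 probe sets 3 were called higher, and the other was at 0.49 without a call (adjusted p = 0.390). A called Rab27b probe set, at 2.60 and 2.94 units in MPP, was under the floor on both MPP arrays.

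Tubb1, the beta tubulin of the platelet's marginal band, read 54.5 and 58.5 units in HSC, against 31.2 and 28.3 units in MPP. The replicates of each group were close and the groups did not overlap, yet the difference of 0.81 (95% interval 0.11 to 1.5) had no call (limma adjusted p = 0.139). Fermt3, a kindlin that activates integrins, read 3958 and 4464 units in HSC, against 2836 and 2733 units in MPP, a difference of 0.59 (SE 0.15, adjusted p = 0.0274). None of its other 3 probe sets was called, at 0.18, 0.33 and 0.59. Its call was lost without MPP replicate 1 (0.62, adjusted p = 0.219), without MPP replicate 2 (0.57, adjusted p = 0.283) and with equal array medians (0.36, adjusted p = 0.121). Plek, pleckstrin, a kinase substrate of platelets and white blood cells, fell to 119 and 133 units in HSC, against 548 and 826 units in MPP. All 3 Plek probe sets were called lower, and the brightest had a log2 difference of -2.36 (SE 0.22, adjusted p = 1.30e-04). Myl9, a myosin light chain, was under the floor on every array, at 11.8 and 0.671 units in HSC and 3.31 and 2.14 units in MPP.

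Among regulators and signalling genes, 4 of 11 tested members rose, none fell and 7 had no call, against 7.71% higher and 5.9% lower over all genes. Nfe2, a transcription factor needed for platelet release, read 1432 and 1867 units in HSC, against 859 and 689 units in MPP. The log2 difference was 1.08 (SE 0.19, limma adjusted p = 0.00428), and 0.92 with no call without MPP replicate 2 (adjusted p = 0.0520). Tbxas1, thromboxane synthase, read 1020 and 1016 units in HSC, against 219 and 182 units in MPP. The HSC arrays were nearly equal, and the difference was 2.31 (SE 0.18, adjusted p = 3.83e-05). Gucy1a3, which RefSeq writes Gucy1a1, is the alpha subunit of the nitric oxide receptor guanylate cyclase. It read 378 and 300 units in HSC, against 45.8 and 66.3 units in MPP. Its difference was 2.49 (SE 0.25, adjusted p = 1.67e-04), while its 2 dimmer probe sets were at 1.08 and 1.13 without a call (adjusted p = 0.0588 and 0.0845).

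Gucy1b3, the beta subunit with which it forms the enzyme, read 9.16 and 29.7 units in HSC, against 18.5 and 23.9 units in MPP. It lay near the floor, its groups overlapped, and the difference was -0.22 (95% interval -1.33 to 0.90). Mrvi1, a target of the cyclic GMP pathway, read 0.722 and 16.5 units in HSC, both under the floor, against 31.6 and 43.3 units in MPP. Its second probe set was under the floor on every array. On the brighter probe set, MPP were at least 2.21-fold higher for Mrvi1 by mean level, without a call. The log2 difference for Mrvi1 was -1.81 (95% interval -3.11 to -0.50, limma adjusted p = 0.0809). It was called lower without HSC replicate 2 (-2.68, adjusted p = 0.00655) and with equal array medians (-2.04, adjusted p = 0.0459), but was at -0.93 without HSC replicate 1 (adjusted p = 0.191).

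Trpc6, a calcium-permeable channel, read 210 and 226 units in HSC, against 63.5 and 51.4 units in MPP, a difference of 1.82 (SE 0.23, limma adjusted p = 7.84e-04). F2r, a thrombin receptor, was bright in both groups, with 2400 and 3237 units in HSC, against 2445 and 1961 units in MPP. Its groups overlapped and its difference of 0.35 (95% interval -0.06 to 0.76) had no call, except without HSC replicate 1 (0.56, adjusted p = 0.0298), and it was 0.13 without HSC replicate 2 (adjusted p = 0.673). F2rl2, a related receptor, read 40.9 and 55.5 units in HSC, against 22.3 and 45.1 units in MPP, also overlapping. P2rx1, an ATP-gated channel, read 185 and 108 units in HSC, against 102 and 65.6 units in MPP, a difference of 0.75 (adjusted p = 0.167) that was called without HSC replicate 2 (1.12, adjusted p = 0.0300) and was 0.37 without HSC replicate 1 (adjusted p = 0.481) and 0.45 without MPP replicate 2 (adjusted p = 0.614). P2ry1, a receptor for ADP, was under the floor on every array, at 1.54 and 9.45 units in HSC and 1.79 and 2.39 units in MPP.

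Lat and Fyb, adaptors of receptor signalling, had no call. Lat read 126 and 165 units in HSC, against 103 and 91.5 units in MPP, a difference of 0.55 (limma adjusted p = 0.192). Fyb read 275 and 234 units in HSC, against 349 and 334 units in MPP, a difference of -0.42 (adjusted p = 0.204), and its second probe set was at -0.55. The groups of Lat and of the brighter Fyb probe set did not overlap, in opposite directions.

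Over the 57 member probe sets tested, 24 were called higher and 4 lower, against 5.96% and 4.65% of all probe sets. Of 14 members with several tested probe sets, 12 had all of them on one side of 0 and 10 had the same call on all. No member had probe sets called in opposite directions. Selp and Gp1bb were the members whose probe sets differed in sign. Probe sets of 1 gene read different stretches of its transcripts and are not replicates of the gene.

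**Figure D3:**
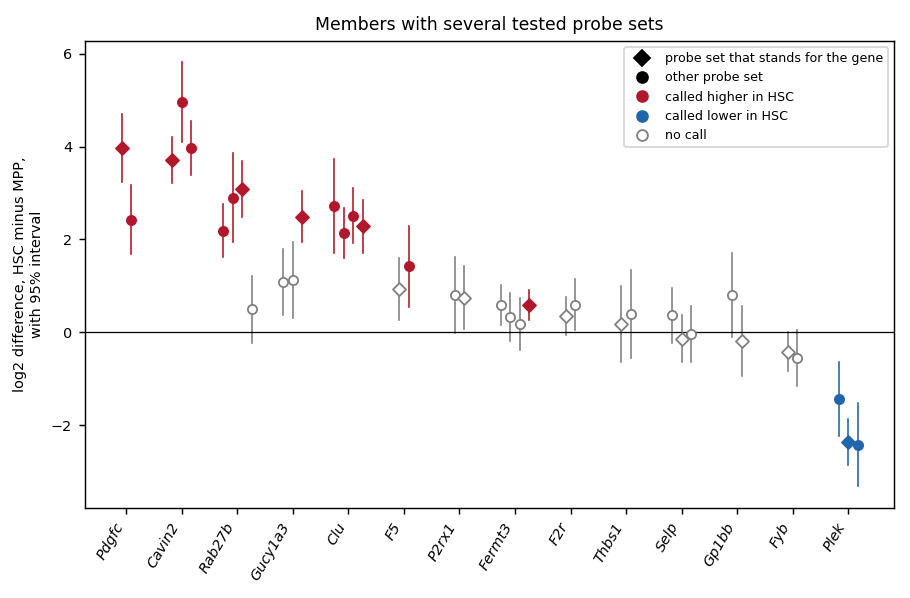
Log2 difference, HSC minus MPP, with 95% intervals from limma, of every tested probe set of the 14 members that had several, with the one that stands for the gene as a diamond. The probe sets of Clu, Cavin2 and Plek are filled on one side of 0, while Rab27b, Gucy1a3 and Fermt3 mix filled and open points.

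Further genes of the megakaryocyte lineage were read from 3 other lists. Over all genes tested, 7.71% were called higher and 5.9% lower, with a median log2 difference of 0.10. Of 18 tested genes for transcription factors and the thrombopoietin receptor, 7 rose and 1 fell, with a median log2 difference of 0.25. Gfi1b, a repressor needed for megakaryocytes and red cells, read 300 and 405 units in HSC, against 129 and 110 units in MPP, a difference of 1.51 (SE 0.22, limma adjusted p = 0.00179). Gata2, a GATA factor of early blood cells, was at 1.41 (adjusted p = 0.00151) and Meis1, a homeobox cofactor, at 0.99 (adjusted p = 0.00265). Cbfb, the partner of Runx factors, fell by 0.92 (adjusted p = 0.0111). Of 18 further platelet surface and signalling genes, 5 rose and none fell, with a median of 0.49. Gng11, a G-protein gamma subunit, read 915 and 802 units in HSC, against 244 and 190 units in MPP (log2 difference 1.96, adjusted p = 1.42e-04). Pear1, a platelet contact receptor, was at 1.65, the tetraspanin gene Cd9 at 1.17 and Itga6, a laminin-binding integrin chain, at 0.89. Of 19 further granule and cytoskeleton genes, 1 rose (5.26%), 1 fell (5.26%) and 17 had no call, with a median of 0.11. These shares and this median were near those over all genes. Angpt1, angiopoietin, rose by 0.56 (adjusted p = 0.0416). Slc35d3, a transporter known for its part in mouse platelet dense granules, read 45.3 and 23.5 units in HSC, against 330 and 377 units in MPP (log2 difference -3.20, adjusted p = 8.99e-05).

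**Figure D4:**
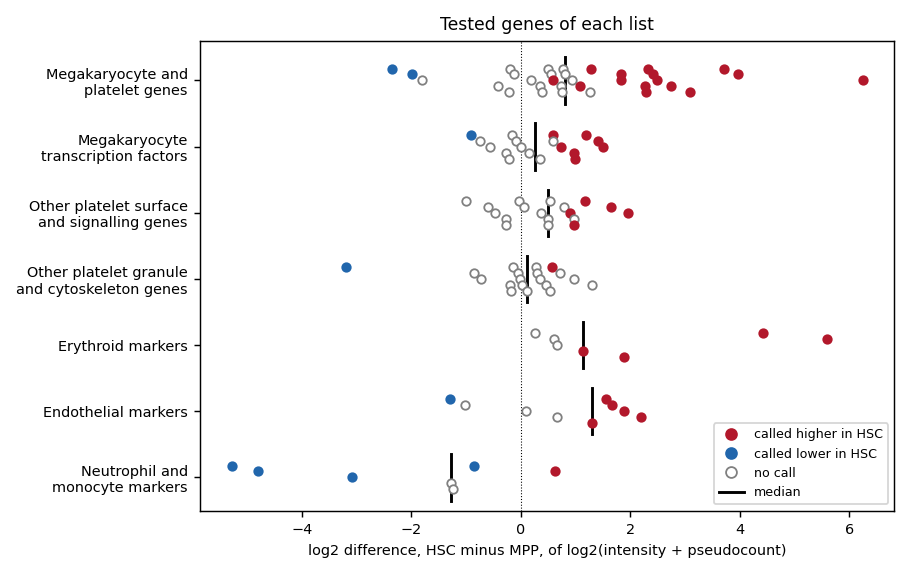
Log2 difference, HSC minus MPP, of each tested gene in 7 lists, with the median of each list as a black bar. The median is 0.81 for the megakaryocyte and platelet genes, 0.25 for the megakaryocyte transcription factors, 0.49 for the further surface and signalling genes, 0.11 for the further granule and cytoskeleton genes, 1.13 for the erythroid markers, 1.29 for the endothelial markers and -1.28 for the neutrophil and monocyte markers.

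Markers of other cell types differed between the groups as well. Over all genes tested, 7.71% were called higher and 5.9% lower. Summed over 10 erythroid markers, the signal was 5427 and 5982 units in HSC, against 2119 and 2091 units in MPP, and 4 of 7 tested markers rose, namely Car1, Ermap, Car2 and Klf1. Car2, a carbonic anhydrase, made up most of that sum, with 4334 and 4225 units in HSC, against 1948 and 1943 units in MPP. Slc4a1 and Alas2, genes of mature red cells, were at or under the floor on all arrays. Summed over 10 endothelial markers, the signal was 1084 and 949 units in HSC, against 636 and 641 units in MPP, and 5 of 9 tested markers rose, among them Esam, Tek, Cldn5 and Kdr, while 1 fell. Tek was also counted among the stem cell markers. Cdh5, a defining gene of vessel lining cells, was at or under the floor on all arrays. Summed over 9 neutrophil and monocyte markers, the signal was 2589 and 1985 units in HSC, against 7795 and 9277 units in MPP, and 4 of 7 tested markers (Ctsg, Mpo, Csf1r and Prtn3) fell while 1 rose. Plek and F13a1, the members that fell, moved in the same direction as that sum, and so did the lymphoid and progenitor markers when summed. Csf1r, a monocyte receptor, read 54.0 and 30.9 units in HSC, against 282 and 552 units in MPP. Summed over 9 lymphoid markers, the signal was 77.5 and 157 units in HSC, against 2404 and 3708 units in MPP, and 2 of 5 tested markers (Dntt and Il7r) fell, while Cd3e, Cd79a and Ebf1 were at or under the floor on all arrays. Dntt, an enzyme of early lymphoid cells, made up most of the MPP sum, with 32.7 and 37.3 units in HSC, against 2244 and 3408 units in MPP. The part of such cells in the results was not tested.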

How the data were processed

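RNA of sorted HSC and MPP (2 arrays each) was measured on Affymetrix mouse expression arrays. The deposited values are probe set intensities on a linear scale. Which software summarised them is not stated in the labels. After trimming 2% of values at each end, all 4 arrays had 1 common mean, so the authors' table was taken as already scaled and the deposited intensities were used as given. Of 45101 probe sets, 64 controls were left out. Names came from the platform annotation, updated through gene identifiers to RefSeq (GRCm38.p6). 34945 probe sets had 1 symbol, 932 several and 9160 none, and only the first named a gene.

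A pseudocount of 6.01 (0.25 of the overall median) was added to each intensity before log2. The lowest 40% by mean level were left out. The comparison used limma 3.58.1 (R 4.3.3), lmFit and eBayes with a trend, 2-sided, across all 27022 remaining probe sets, with Benjamini-Hochberg adjustment. There were 2 residual and 8.48 prior degrees of freedom, so errors rest largely on a spread shared across probe sets, and 4 arrays limit the precision. The procedure was tested on simulated data. Where neither array of a group exceeded the floor, a fold is given as at least N-fold, from log2 means with the dim arrays set to the floor. The labels do not say whether the Bacillus transcripts behind the floor were added to the RNA. On the log2(intensity + pseudocount) scale the change of dim genes is understated. Amplification in 2 cycles, per the labels, favours the 3′ ends of transcripts.

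All 41 members are named. Of the other lists, the called genes among the 4 with the smallest p are named, and marker genes at the floor were added after their values were seen. The members and lists were chosen with earlier results of these data known. Alternatives covered scaling, pseudocount, filter, probe set choice, the trend, a replicate block and leaving out each array.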

Additional observations from a re-analysis of the deposited data

How the results depend on the processing

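Over all probe sets, 1020 were higher and 2379 lower with equal array medians, 917 and 780 without the filter, 633 and 374 without the trend in eBayes, against 1611 and 1257 as reported. With each array left out in turn they ran from 1026 to 2011 higher and from 568 to 1908 lower. Members called higher numbered 9 without the trend, and those called lower 1 without the filter, 1 without the trend and 1 to 3 with an array left out. The members' median log2 difference was 0.57 with equal array medians, 0.67 with quantile normalization, 0.64 with a pseudocount at the median, 0.90 with a pseudocount of 1, 0.93 without the lowest 60%, and 0.89 to 0.95 with an array left out. The groups' replicate differences were nearly uncorrelated (r = 0.027 over 27022 probe sets), which does not say whether the replicates were paired by origin. With the replicate block 2525 probe sets were higher and 18 members rose. The sign of 4 uncalled members turned: Thbs1 was at -0.053 with equal medians, -0.054 with quantile normalization and -0.028 to 0.39 with an array left out, Gp1bb at 0.30 and Selp at 0.065 as the mean of their probe sets, Selp at 0.37 without probe sets whose suffix marks several transcripts and -0.31 to 0.047 with an array left out, and Gucy1b3 at -0.84 to 0.40. The cause was not tested. All 17 called members kept their sign in the 14 settings, and 10 kept the call wherever tested: Vwf, Mmrn1, Clu, Pdgfc, Plek, Rab27b, Cavin2, Trpc6, Gucy1a3 and Tbxas1. Itgb3, Gp9, Clec1b, Pf4, F13a1, Fermt3 and Nfe2 lost the call without the trend in eBayes. All of these but Pf4 and Nfe2 also lost it without the filter. Signals at the floor limit what can be read for the dimmest members.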
